A study of Mus musculus with 4 samples.

Results

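Transcripts of 9 surface proteins through which B cells are costimulated, costimulate T cells or show that they have been activated were examined in resting follicular B cells with and without the transcription factor Ets1. The genes were taken by name, Cd80, Cd86, Icosl, Cd274, Pdcd1lg2, Cd83, Cd69, Cd44 and Cd24a, and all 9 were found among the 23305 genes of the deposited tables. The cells came from the spleens of female mice, with 2 libraries from WT mice of the C57BL/6 strain and 2 from Ets1-/- mice on a mixed C57BL/6 x 129Sv background, so the effects of genotype and of strain cannot be told apart. The age of the mice and the number of mice behind each library are not given in the sources used here, and all 4 libraries were made from cells sorted as B220+ with high CD23 and low CD21 that stained for neither CD80 nor switched immunoglobulin isotypes. The gate therefore removed cells with CD80 protein on their surface in both genotypes, which bears on Cd80 and may bear on other genes that are expressed together with it.

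CD80, CD86, ICOS ligand, PD-L1 (encoded by Cd274) and PD-L2 (encoded by Pdcd1lg2) belong to the B7 family of ligands, which meet receptors of the CD28 family on T cells. CD80 and CD86 bind CD28, which promotes T cell activation, and CTLA-4, which restrains it; ICOS ligand binds ICOS and supports follicular helper T cells; PD-L1 and PD-L2 bind the inhibitory receptor PD-1. CD83 and CD69 appear on B cells soon after antigen receptor engagement, whereas CD44, the hyaluronan receptor, marks antigen-experienced lymphocytes and CD24, a small lipid-anchored glycoprotein, is most abundant on immature B cells.

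Expression was measured as FPKM, a fragment count that is divided by gene length and by library size, so that the levels of different genes can be set side by side. In each library between 10466 and 10713 genes reached 1 FPKM. The number of reads behind a value is not part of the files; from the steps between very low values, WT replicate 2 and Ets1-/- replicate 1 were about 1.71 and 1.62 times as deep as WT replicate 1, and Ets1-/- replicate 2 about 0.847 times. Differences between genotypes were tested with limma on log2(FPKM + 1) across 10949 genes, those that averaged 1 FPKM or more in WT or in Ets1-/- libraries. Calls required a log2 fold change of 1 or more in size and, with Benjamini-Hochberg adjustment, a p of 0.05 or less. By this rule 186 genes, or 1.70% of those tested, were called. The B cell genes Cd79a, Ms4a1 and Fcer2a, the last of which encodes the CD23 used for sorting, were between 488 and 2051 FPKM in every library. Of the 8 genes found from a list for the sorting gate, 0 were higher and 2 lower in both Ets1-/- replicates, against 22.2% lower among all tested genes. The 2 were Cd79a and Cr2, the gene of the CD21 used for sorting. Cr2 had 102 and 116 FPKM in WT and 65.1 and 30.0 FPKM in Ets1-/- B cells. RNA of other cells was present too: the summed FPKM of 13 neutrophil genes was 116 and 94.9 in the WT replicates and 2588 and 712 in the Ets1-/- replicates, all 13 being higher in both Ets1-/- replicates. Ets1 itself, at 231 and 275 FPKM in WT and 229 and 229.8 FPKM in Ets1-/- B cells, does not check the labels, because the targeted allele loses part of the transcript and not the whole of it.

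None of the 9 genes was called changed by this rule, in which limma stands in for the Cuffdiff test of the authors. Of the 8 tested, 0 passed both thresholds in limma, near the 1.70% called among all tested genes. For 2 of them, Pdcd1lg2 and Cd83, the unadjusted p by limma was under 0.05, a level reached by 13.3% of all tested genes. The genotypes did not overlap for 4 of the 8, with Cd83 higher and Pdcd1lg2, Cd44 and Icosl lower in both Ets1-/- replicates, and 41.6% of all tested genes were likewise without overlap, 19.4% being higher and 22.2% lower. Counts of cell type markers given below are to be read beside these shares. The median log2 fold change of the 8 genes was 0.01, beside -0.02 for all tested genes, and the range was from -0.99 for Pdcd1lg2 to 0.91 for Cd69. In bulk RNA of this kind, fewer cells of a type and less RNA per cell cannot be told apart.

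The promoters of the genes that were lower in both Ets1-/- replicates are shown first, because proteins of the Ets family bind DNA at the core sequence GGAA. For 5 of the 9 genes a promoter was found in the RefSeq table, while Cd86, Cd83, Cd69 and Cd24a had none. The sequences below are the 250 bases before the start site in the GRCm38.p6 build, written 5′ to 3′ on the strand of the gene, with GGAA on either strand (TTCC where the core is on the other strand) in capitals. Cd274 is included because it neighbours Pdcd1lg2.

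Icosl: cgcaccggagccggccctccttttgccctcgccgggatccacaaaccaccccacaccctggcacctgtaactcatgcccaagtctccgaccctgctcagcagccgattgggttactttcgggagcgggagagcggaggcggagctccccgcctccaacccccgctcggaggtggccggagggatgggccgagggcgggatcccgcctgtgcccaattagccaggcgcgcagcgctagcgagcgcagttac

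Pdcd1lg2: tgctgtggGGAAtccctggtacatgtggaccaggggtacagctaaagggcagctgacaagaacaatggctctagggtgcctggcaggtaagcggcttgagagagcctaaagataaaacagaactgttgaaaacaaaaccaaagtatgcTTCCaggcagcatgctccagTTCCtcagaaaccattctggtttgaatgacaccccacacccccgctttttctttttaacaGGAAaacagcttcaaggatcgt

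Cd44: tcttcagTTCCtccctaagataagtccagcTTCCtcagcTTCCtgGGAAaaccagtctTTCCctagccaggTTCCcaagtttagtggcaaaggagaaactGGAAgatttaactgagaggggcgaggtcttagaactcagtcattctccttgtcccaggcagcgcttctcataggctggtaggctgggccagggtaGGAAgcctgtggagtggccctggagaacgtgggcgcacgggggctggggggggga

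Cd274: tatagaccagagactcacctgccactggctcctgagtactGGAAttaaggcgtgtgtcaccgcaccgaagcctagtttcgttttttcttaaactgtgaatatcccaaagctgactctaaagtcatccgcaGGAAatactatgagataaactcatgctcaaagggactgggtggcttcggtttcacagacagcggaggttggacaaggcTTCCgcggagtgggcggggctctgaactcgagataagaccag

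The Icosl window (chr10:78069118-78069367, plus strand) held no GGAA on either strand, as did 6.55% of 32851 promoter windows of the same length. The Pdcd1lg2 window (chr19:29410669-29410918, plus strand) held 4 matches, and 33.4% of windows held at least 4. The Cd44 window (chr2:102901666-102901915, minus strand) held 8, a number that 1.45% of windows reached or exceeded. The Cd274 window (chr19:29367188-29367437, plus strand) held 3 matches, the median of all windows, and the Cd80 window held 1. The longer sequence CCGGAA, which overlaps the core, was found in 12% of windows on either strand and in none of the 5 windows. These are matches of letters in a short window and say nothing on binding by Ets1. In the paper, Icosl and Pdcd1lg2 both have Ets1 ChIP-seq peaks, whose positions relative to these windows are not used here.

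In WT B cells the levels of the 9 genes spanned nearly 3 orders of magnitude. Cd24a was the most abundant at 335 ± 32.1 FPKM (SD, n = 2), followed by Icosl at 205 ± 17.1 FPKM (SD, n = 2) and Cd83 at 173 ± 24.1 FPKM (SD, n = 2). These 3 transcripts stood at or above the 97.9th percentile of all genes in both WT libraries. Cd69 came next and overlapped with Cd83, while Cd274, Cd44, Cd86 and Pdcd1lg2 followed between 20.8 and 7.02 FPKM in that order, each neighbour being separated in both WT replicates. Cd80 was last, at 0.439 ± 0.0893 FPKM (SD, n = 2).

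In Ets1-/- B cells the order at the top was less clear. Cd24a averaged 299.9 FPKM and Cd83 averaged 283 FPKM, and their replicates overlapped, with Cd24a higher in replicate 1 and Cd83 higher in replicate 2. Icosl moved from the second to the fourth place by its mean, and Cd44 from the sixth to the seventh. Pdcd1lg2 and Cd80 kept the last 2 places in every library.

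**Figure D1:**
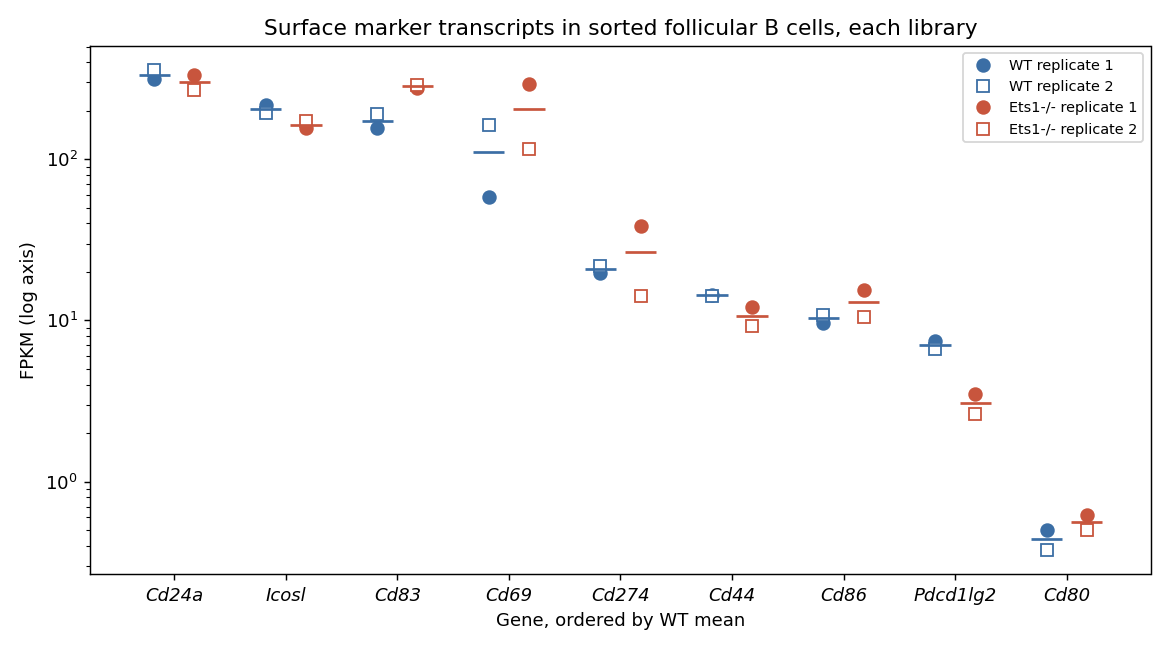
FPKM (log axis) of the 9 genes in each library, with WT in blue, Ets1-/- in red, replicate 1 as filled circles, replicate 2 as open squares and horizontal lines at the mean of each genotype. Cd83 lay higher and Pdcd1lg2 lower in both Ets1-/- replicates, while Cd69, Cd274, Cd86 and Cd24a differed more between the Ets1-/- replicates than between the genotype means.

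Of the ligands for CD28 and CTLA-4, Cd86 was transcribed at a modest level and Cd80 barely. Cd86 lies on the minus strand of chromosome 16, from 36603955 to 36666167 in mm9, the build of all gene positions given here. It measured 9.71 and 10.9 FPKM in WT, against 15.5 and 10.5 FPKM in Ets1-/- B cells. Only Ets1-/- replicate 1 stood above both WT values, so the genotypes overlapped. Its log2 fold change was 0.29 with a standard error of 0.21, and its 95% interval reached from 0.840-fold to 1.78-fold (limma, Benjamini-Hochberg adjusted p = 0.698).

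Cd80 lies 1.79 Mb from Cd86 on the same chromosome, from 38459013 to 38495821 on the plus strand, with 25 protein-coding genes between them. Its FPKM was 0.502 and 0.376 in WT and 0.621 and 0.501 in Ets1-/- B cells. The lower Ets1-/- value fell just under the higher WT value, and between 50.2 and 51.6% of genes lay below Cd80 in each library, many of them at 0. With a mean under 1 FPKM in both genotypes, Cd80 was not part of the main test; when genes with low values were kept, its log2 fold change of 0.12 had a standard error of 0.08 (limma, Benjamini-Hochberg adjusted p = 0.706 over 17315 genes). Cells with CD80 protein had been removed by the gate, so these values describe what was left after sorting. Per length, Cd86 exceeded Cd80 by 19.3 and 28.9 times in the WT replicates and by 24.97 and 21.0 times in the Ets1-/- replicates, with no separation of the genotypes.

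The sum of 15 dendritic cell and macrophage markers, cells in which Cd80 and Cd86 are also expressed, was 71.0 and 36.5 FPKM in WT and 158 and 103 FPKM in Ets1-/- B cells. Of these 15 markers 6 were higher in both Ets1-/- replicates, and none was at 0 in all libraries. Lyz2, which neutrophils also express, and Emr1, a macrophage gene, made up most of the sum in Ets1-/- B cells, at 102 and 45.7 FPKM and at 23.5 and 37.2 FPKM. Zbtb46, a marker of conventional dendritic cells, lay between 0.533 and 0.558 FPKM in all 4 libraries. The part of these cells in the values of Cd80 and Cd86 was not tested.

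Icosl, on chromosome 10 from 77532105 to 77546000 on the plus strand, encodes the ligand of ICOS and was the most abundant of the 5 B7 ligand transcripts described here. It had an FPKM of 217 and 193 in WT and of 155 and 172 in Ets1-/- B cells. Both Ets1-/- values were below both WT values, by a modest margin. For Icosl the log2 fold change was -0.32 with a standard error of 0.16, and the 95% interval of the change went from 0.600-fold to 1.06-fold (limma, Benjamini-Hochberg adjusted p = 0.515). The paper counts the ICOS ligand gene among those with ChIP-seq peaks of both Ets1 and Pax5 in B cells. Icos and Cd28, the receptors on T cells, were each at or under 2.16 FPKM in every library.

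Pdcd1lg2, which encodes PD-L2, differed most in its mean between the genotypes among these 5 ligands. It lies on chromosome 19 from 29485409 to 29545647 on the plus strand. In WT it had an FPKM of 7.41 and 6.64, a mean of 7.02 ± 0.549 (SD, n = 2), and in Ets1-/- B cells of 3.51 and 2.62, a mean of 3.06 ± 0.626 (SD, n = 2). The genotypes were thus well apart, and the WT mean was 2.29 times the Ets1-/- mean. On the log2(FPKM + 1) scale, which draws the change of low genes towards 0, the log2 fold change was -0.99 with a standard error of 0.17 and an unadjusted p of 0.00224 by limma. The 95% interval of the fold change on that scale, 0.370-fold to 0.686-fold, lay below 1. Neither threshold was met (limma, Benjamini-Hochberg adjusted p = 0.0758), although with a pseudocount of 0.5 or 0.1 in place of 1 the log2 fold change was -1.09 or -1.18, and by p the gene ranked at place 323 of those tested. The paper, which compared the genotypes with Cuffdiff, lists Pdcd1lg2 as downregulated in Ets1-/- B cells. It also lists the gene among potential Ets1 targets, which had an Ets1 binding peak nearby in its ChIP-seq. PD-L2 is known from B1 and memory B cells, and the summed FPKM of 9 B1 cell markers was 62.7 and 74.6 in WT and 138 and 114 in Ets1-/- B cells, where 5 of the 9 were higher and 2 lower in both replicates. Most of this difference came from Bhlhe40, a transcription factor gene with 20.8 and 33.9 FPKM in WT and 88.5 and 64.0 FPKM in Ets1-/- B cells, while Spn and Ahnak were the 2 lower ones and Cd5 overlapped. A list of 7 memory or atypical B cell markers summed to 25.5 and 33.9 FPKM in WT and to 44.4 and 33.4 FPKM in Ets1-/- B cells, with 4 of the 7 higher and 1 lower in both. The gate for high CD23, and against CD80 and switched isotypes, selects against B1 cells and many memory B cells, and their part in the value of Pdcd1lg2 was not tested.

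Cd274, which encodes PD-L1, lies 22.8 kb from Pdcd1lg2, from 29441945 to 29462585 on the plus strand, with no protein-coding gene between them. Unlike its neighbour, it was not lower in both Ets1-/- replicates. Its FPKM was 19.6 and 21.9 in WT, and 38.7 in Ets1-/- replicate 1 but 14.3 in Ets1-/- replicate 2, so that 1 replicate stood above and the other below both WT values. The 2.71-fold gap between the Ets1-/- replicates was wider than that of 98.5% of tested genes. For Cd274 a log2 fold change of 0.18 had a standard error of 0.45, and the 95% interval from 0.508-fold to 2.53-fold leaves a change of 2-fold in the upward direction within its bounds (limma, Benjamini-Hochberg adjusted p = 0.947). Its direction rested on 1 library: without Ets1-/- replicate 1 the log2 fold change was -0.51, and without Ets1-/- replicate 2 it was 0.87. Ets1-/- replicate 1 was also the library with the larger neutrophil sum, 2588 against 712 FPKM in replicate 2, and neutrophils express PD-L1; the part of these cells was not tested.

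The ratio of Cd274 to Pdcd1lg2 within a library does not depend on how libraries were scaled. This ratio was 2.65 and 3.30 in the WT replicates and 11.1 and 5.45 in the Ets1-/- replicates, with both Ets1-/- values above both WT values. The ratio of Cd83 to Icosl was 0.716 and 0.982 in WT and 1.78 and 1.69 in Ets1-/- B cells, so that Icosl was the more abundant of this pair in WT and Cd83 in Ets1-/- libraries. These pairs were chosen after the values were seen and were not tested, and with 2 libraries against 2 an exact permutation test cannot give a two-sided p below 0.333.

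**Figure D2:**
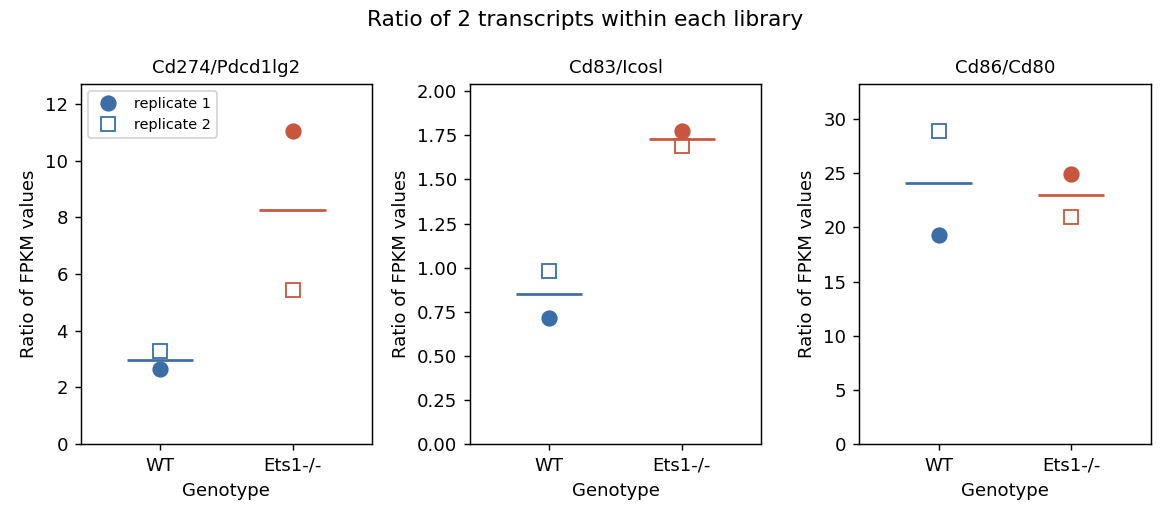
Ratio of FPKM values of 2 transcripts within each library (linear axes from 0), for Cd274 over Pdcd1lg2, Cd83 over Icosl and Cd86 over Cd80, with WT in blue, Ets1-/- in red, filled circles for replicate 1, open squares for replicate 2 and lines at the means. For the first 2 ratios both Ets1-/- points lie above both WT points, and the third overlapped.

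The activation marker Cd83, on chromosome 13 from 43880476 to 43898499 on the plus strand, encodes an immunoglobulin superfamily protein that keeps MHC class II and CD86 on the cell surface. Its FPKM was 156 and 189.7 in WT, a mean of 173 ± 24.1 (SD, n = 2), and 276 and 290.1 in Ets1-/- B cells, a mean of 283 ± 10.2 (SD, n = 2). Both Ets1-/- values were above both WT values, and the Ets1-/- mean was 1.64 times the WT mean. On the log2 scale the change of 0.72 had a standard error of 0.18 and an unadjusted p of 0.00912 by limma, and the 95% interval from 1.20-fold to 2.24-fold lay above 1. Cd83 met neither threshold (limma, Benjamini-Hochberg adjusted p = 0.154). CD83 is also found on germinal centre B cells, and a list of 8 germinal centre markers summed to 50.0 and 68.6 FPKM in WT and to 40.2 and 46.6 FPKM in Ets1-/- B cells, with none of the 8 higher and 2 lower in both Ets1-/- replicates. Among all tested genes 22.2% were lower in both. Of the 15 dendritic cell and macrophage markers given above, 6 were higher and 0 lower in both. The part of these or other cells in the value of Cd83 was not tested.

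Cd69, on chromosome 6 from 129217342 to 129225387 on the minus strand, encodes a C-type lectin that binds the receptor S1PR1 and holds activated lymphocytes in tissue. No other gene of the 9 varied as much. Its FPKM was 58.3 and 162 in the WT replicates and 293 and 115 in the Ets1-/- replicates. The highest value was in Ets1-/- replicate 1, but Ets1-/- replicate 2 was below WT replicate 2, so the genotypes overlapped. Cd69 had a log2 fold change of 0.91, whose standard error was 0.64, and the 95% interval ran from 0.609-fold to 5.80-fold (limma, Benjamini-Hochberg adjusted p = 0.677).

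The spread of Cd69 was unusual in both genotypes. WT replicate 2 exceeded WT replicate 1 by 2.78 times, a wider gap than that of 99.0% of tested genes, and Ets1-/- replicate 1 exceeded Ets1-/- replicate 2 by 2.54 times, wider than 98.4%. The higher library of each genotype was the deeper one. Without WT replicate 1 the log2 fold change of Cd69 was 0.18 and without Ets1-/- replicate 1 it was 0.24, whereas it was 1.64 without WT replicate 2 and 1.58 without Ets1-/- replicate 2. CD69 is transcribed within a short time of stimulation, as are the immediate early genes, and 14 of these, chosen after the values of Cd69 were seen, were set beside it. Of the 14, 13 were higher in WT replicate 2 than in WT replicate 1, by a median ratio of 1.80, against 49.5% of all tested genes. Between the Ets1-/- replicates 7 of the 14 were higher in replicate 1, by a median ratio of 1.09, against 45.5% of all tested genes. Fosb, at 64.5 and 206 FPKM in WT and at 577 and 360.2 FPKM in Ets1-/- B cells, and Nr4a1, at 70.8 and 141 FPKM in WT and at 137 and 66.2 FPKM in Ets1-/- B cells, were higher in the same replicates as Cd69. Fos, at 687 and 1283 FPKM in WT and at 2120 and 2307 FPKM in Ets1-/- B cells, was so in WT but not in Ets1-/- B cells. Of the 14 genes 10 were above both WT values in both Ets1-/- replicates, against 19.4% of all tested genes, and Cd69 was not. Whether handling of the cells or their state in the mouse lies behind these values was not tested.

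**Figure D3:**
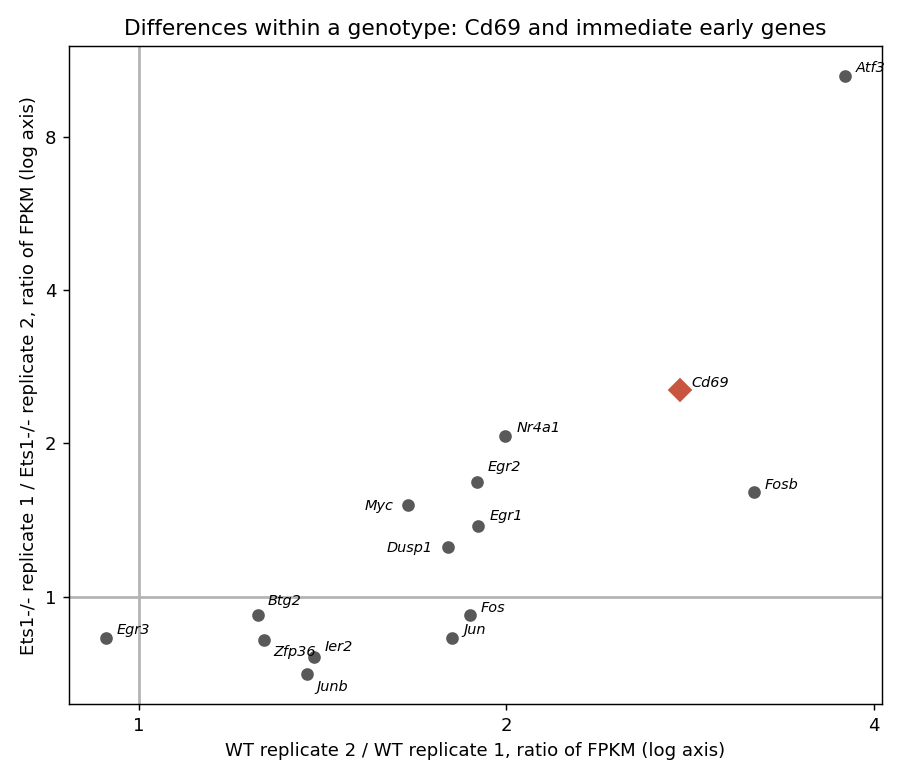
Ratio of FPKM between the replicates of a genotype (both axes log), WT replicate 2 over WT replicate 1 against Ets1-/- replicate 1 over Ets1-/- replicate 2, for Cd69 (red diamond) and 14 immediate early genes (grey circles), with grey lines at a ratio of 1. Cd69 lay at 2.78 and 2.54, and 13 of the 14 other genes were right of the vertical line while 7 were above the horizontal line.

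Cd44, on chromosome 2 from 102651298 to 102741822 on the minus strand, measured 14.5 and 14.3 FPKM in WT and 12.2 and 9.25 FPKM in Ets1-/- B cells. The WT replicates were nearly equal and both Ets1-/- values lay below them. Its change on the log2 scale, -0.41, had a standard error of 0.17, and its 95% interval went from 0.557-fold to 1.02-fold (limma, Benjamini-Hochberg adjusted p = 0.417). T cells and NK cells also carry CD44. The summed FPKM of 11 T cell markers was 336 and 343 in WT and 299 and 379 in Ets1-/- B cells, where 5 of the 11 were lower and 1 higher in both replicates. Cd2, which is also on the list of B cell state markers described below, made up most of these sums. It had 190 and 219 FPKM in WT and 194 and 244 FPKM in Ets1-/- B cells. Thy1, 1 of the 5 lower markers, had 17.4 and 16.2 FPKM in WT and 3.38 and 3.39 FPKM in Ets1-/- B cells. Cd3g, the 1 higher marker, had 22.8 and 16.9 FPKM in WT and 25.5 and 32.9 FPKM in Ets1-/- B cells. For Cd3d, Cd3e, Cd4 and Zap70 the genotypes overlapped. For 7 NK cell markers the sums were 46.5 and 31.2 in WT and 21.3 and 31.8 in Ets1-/- B cells, with 5 of the 7 lower in both, and none of either list was at 0 in all libraries. The neutrophil list and the dendritic cell and macrophage list given above leaned the other way. Of the former 13 of 13 and of the latter 6 of 15 markers were higher, and 0 lower, in both Ets1-/- replicates. The gate for B220 and high CD23 selects against T and NK cells. The part of any of these cells in the value of Cd44 was not tested.

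Cd24a, on chromosome 10 from 43298975 to 43304068 on the plus strand, was the most abundant of the 9 transcripts by its mean in both genotypes. It had an FPKM of 312 and 358 in WT and of 332 and 268 in Ets1-/- B cells, and the genotypes overlapped. The log2 fold change of -0.16 had a standard error of 0.19, and the 95% interval from 0.633-fold to 1.26-fold excludes a change of 2-fold in either direction on this scale (limma, Benjamini-Hochberg adjusted p = 0.849). The coding sequence of Cd24a, 231 bases long, has 2 near copies in mm9 that cover 94.8% of it, with an identity of 96.8% on chromosome 14 and 92.2% on chromosome 8, and how reads shared with them were counted is not given in the sources used here. The coding sequences of the other 8 genes had no match of at least 100 bases and 90% identity elsewhere in the genome.

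CD24 is also abundant on transitional B cells and on red cell precursors. A list of 7 transitional B cell markers summed to 453 and 428 FPKM in WT and to 406 and 479 FPKM in Ets1-/- B cells, 2 of them being higher and 3 lower in both Ets1-/- replicates. Spib, which was higher, and Vpreb3, which was lower, made up most of these sums. Of 11 erythroid markers 8 were higher and 1 lower in both Ets1-/- replicates, with sums of 17.9 and 17.3 FPKM in WT and of 103 and 36.9 FPKM in Ets1-/- B cells. Marginal zone B cells, which the low CD21 gate leaves out, were represented by 9 markers with sums of 883 and 1084 FPKM in WT and of 963 and 1004 FPKM in Ets1-/- B cells, 2 of them higher and 3 lower in both. Plac8 and Mzb1, the latter also on the plasma cell list, made up most of these sums. For 7 plasma cell markers the sums were 343 and 404 FPKM in WT and 410.0 and 442 FPKM in Ets1-/- B cells, 3 being higher and 3 lower in both. Of the markers found, none on these 4 lists was at 0 in all libraries.

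**Figure D4:**
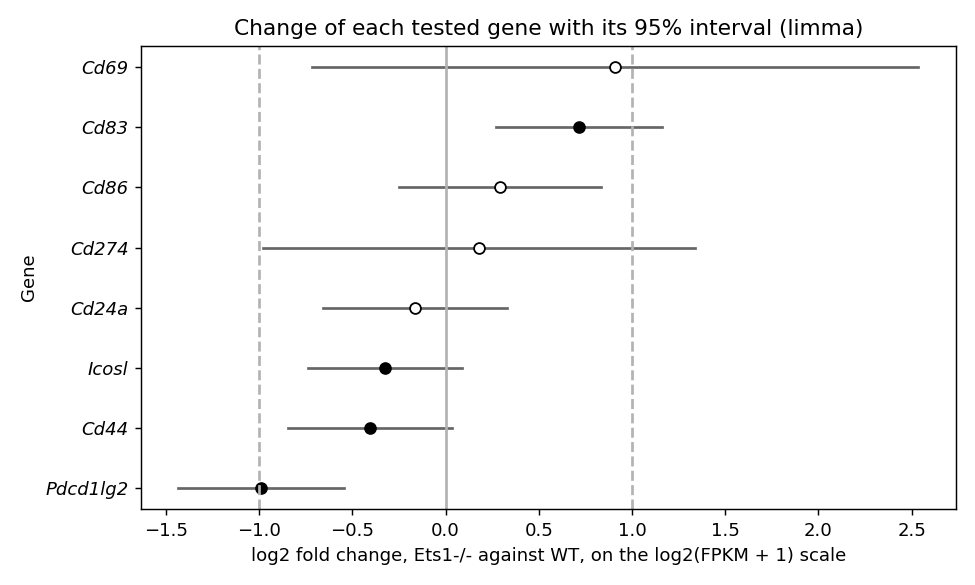
The log2 fold change of Ets1-/- against WT on the log2(FPKM + 1) scale for the 8 tested genes (points) with its 95% interval from limma (lines), filled where the genotypes did not overlap and open where they did, with dashed lines at -1 and 1. The intervals of Cd83 and Pdcd1lg2 leave out 0, and those of Cd69 and Cd274 are the widest.

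The genes around these 9 were described from 3 further lists, of which 0 genes were called changed by limma with Benjamini-Hochberg adjustment. For lists of this size, 0 lies near the 1.70% called among all tested genes. Of the other costimulatory ligands and receptors, 19 were tested, with a median log2 fold change of 0.06, 7 higher and 3 lower in both Ets1-/- replicates, and 5 with an unadjusted p under 0.05. Among all tested genes 19.4% were higher and 22.2% lower in both, and 13.3% had an unadjusted p under 0.05 by limma. Cd276, which encodes the ligand B7-H3, stood highest of the list with 1.37 and 0.997 FPKM in WT and 3.86 and 5.88 FPKM in Ets1-/- B cells, a log2 fold change of 1.41 with a standard error of 0.23 (limma, Benjamini-Hochberg adjusted p = 0.0610). With the replicate number as a block Cd276 was the 1 gene of the 3 lists that was called. Cd48, which encodes a ligand of the receptor CD244, stood lowest with 161 and 154 FPKM in WT and 87.3 and 92.3 FPKM in Ets1-/- B cells, and the log2 fold change was -0.80 (limma, Benjamini-Hochberg adjusted p = 0.0759). Pdcd1, the gene of the receptor for PD-L1 and PD-L2, was low, at 0.816 and 0.993 FPKM in WT and at 1.70 and 2.55 FPKM in Ets1-/- B cells, and its log2 fold change was 0.70 (limma, Benjamini-Hochberg adjusted p = 0.206). Tnfrsf14, which encodes a ligand of BTLA, had 21.5 and 17.6 FPKM in WT and 24.8 and 30.02 FPKM in Ets1-/- B cells, and the butyrophilin-like gene Btnl2 had 8.78 and 7.81 FPKM in WT and 15.3 and 8.88 FPKM in Ets1-/- B cells. Of the 11 further genes of the list in the files, all at low values, 1 was listed at 0 in all libraries.

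Among binding partners and regulators of the 9 proteins, 12 were tested, with a median log2 fold change of 0.06, 4 higher and 1 lower in both Ets1-/- replicates, and 1 with an unadjusted p under 0.05. The shares over all tested genes were 19.4% higher, 22.2% lower and 13.3% with such a p by limma. S1pr1, which encodes the receptor that CD69 binds, had 97.6 and 100.05 FPKM in WT and 129.8 and 117 FPKM in Ets1-/- B cells, a log2 fold change of 0.32 (limma, Benjamini-Hochberg adjusted p = 0.470). Mmp9, a protease of neutrophils that binds CD44, had 1.10 and 0.565 FPKM in WT and 4.03 and 2.12 FPKM in Ets1-/- B cells, a log2 fold change of 1.13 (limma, Benjamini-Hochberg adjusted p = 0.176), and is also on the neutrophil list given above. The CD44 partner Cd74 had a log2 fold change of 0.21, the sheddase gene Adam17 of 0.23 and the cytoskeletal linker Msn of -0.18, each without overlap between the genotypes. The symbol March1, for the ligase that removes CD86 from the surface, is not used here because a spreadsheet had turned such symbols into dates.

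Of 31 other markers of B cell activation and state, all were tested. Their median log2 fold change was -0.13, 6 were higher and 9 lower in both Ets1-/- replicates, and 7 had an unadjusted p under 0.05. Over all tested genes the shares were 19.4% higher, 22.2% lower and 13.3% with such a p by limma. Cd93, a marker of transitional B cells, had 2.96 and 2.28 FPKM in WT and 0.625 and 0.758 FPKM in Ets1-/- B cells, a log2 fold change of -1.09 with a standard error of 0.18 (limma, Benjamini-Hochberg adjusted p = 0.0615). Ly6a, the gene of Sca-1, was at 194 and 225 FPKM in WT and at 116 and 108 FPKM in Ets1-/- B cells, for a log2 fold change of -0.90 (limma, Benjamini-Hochberg adjusted p = 0.0775). Cd97, an adhesion receptor, had a log2 fold change of -0.86, and Spn, the gene of CD43, one of -0.71. Cd63, a tetraspanin of lysosomes, went the other way, at 1.42 and 0.8002 FPKM in WT and at 4.74 and 2.08 FPKM in Ets1-/- B cells, for a log2 fold change of 1.01 (limma, Benjamini-Hochberg adjusted p = 0.288).

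**Figure D5:**
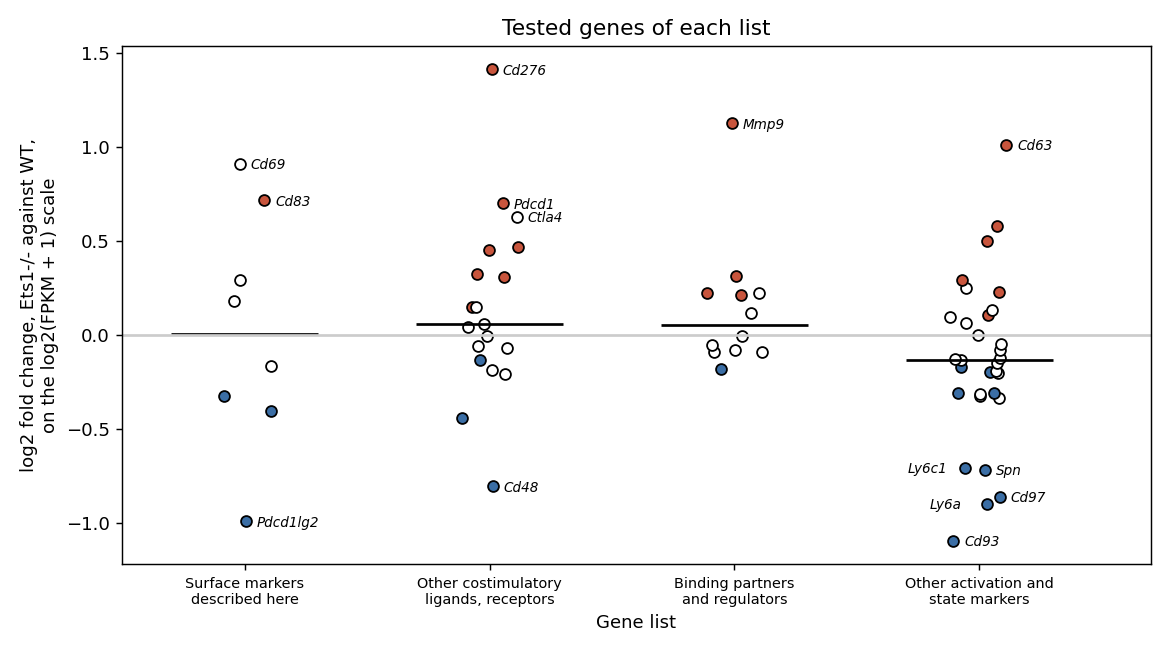
The log2 fold change of Ets1-/- against WT on the log2(FPKM + 1) scale for the tested genes of each list, one circle per gene (horizontal position within a list has no meaning), red where both Ets1-/- values were higher, blue where both were lower and open where the genotypes overlapped, with a black line at the median. The 4 medians lay between -0.13 and 0.06, and Cd276, Mmp9, Cd93 and Cd63 were beyond 1 in either direction.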

How the data were processed

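Expression was measured by RNA-seq of sorted splenic follicular B cells in 2 WT and 2 Ets1-/- libraries. Per the labels and methods, the authors aligned reads to mm9 with TopHat2 2.0.13 and made the deposited FPKM values with Cuffdiff, 1 table per library; the annotation and any further scaling are not given in the sources used here. Since the files hold no counts, tests on counts were not run. From 23309 entries, 4 with repeated symbols were left out. limma 3.58.1 in R 4.3.3 (eBayes with a trend, 2 residual and 3.10 prior degrees of freedom) was fitted on log2(FPKM + 1) to all 4 libraries without a block and tested on simulated data. Other values came from Python 3.11.15, numpy 2.4.6 and pandas 2.3.3, positions from GENCODE M1 (mm9), copies of coding sequences from BLAST 2.17.0 and promoters from RefSeq.

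The 9 genes and all lists were chosen with earlier results of these data known. All 9 are named, as are Ets1, genes called changed, and up to 5 genes per list with the largest log2 fold change among those without overlap; genes of nearest pattern were to be named for any of the 9 called or changed by at least 1 on the log2 scale, which none was. The immediate early genes were added after the values were seen. Replicates are biological replicates per the methods. The p-values set each difference against the spread between these libraries, with the variance of each gene drawn towards a trend over all tested genes.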

Additional observations from a re-analysis of the deposited data

How the results depend on the processing

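Of 14 alternative settings, those that kept all 4 libraries called 0 of the 9 genes changed. Cd80 could be called only without the filter on low values, as 8 of these 9 genes were tested otherwise. Of 111 values of their log2 fold changes under other settings, 109 kept their direction and stayed short of the joint call on fold and adjusted p, or for the untested Cd80 moved by less than the spread between replicates. The 1 reversal was Cd274, whose log2 fold change ranged from -0.51 without Ets1-/- replicate 1 to 0.87 without Ets1-/- replicate 2, and Cd80 went to 0.30 with a pseudocount of 0.1. Cd80 was given no value under scaling, variance and block alternatives, which were computed on tested genes. Single thresholds were crossed by Pdcd1lg2 and Cd69. The log2 fold change of Pdcd1lg2 was -1.18 and -1.09 with pseudocounts of 0.1 and 0.5, -1.06 without WT replicate 2 and -1.15 without Ets1-/- replicate 1, so that its place short of 1 depends on the pseudocount. Its adjusted p in limma was 0.0334 with robust variance estimation, at a log2 fold change of -0.99. Among settings that kept all 4 libraries it ranged from 0.00410 with the crossed pairing of replicates to 0.153 without the filter on low values. Cd69 exceeded 1 without WT replicate 2 and without Ets1-/- replicate 2, at 1.64 and 1.58. With the crossed pairing the adjusted p of Cd69 in limma was 0.00983, at 0.91. That pairing sets WT replicate 2 with Ets1-/- replicate 1, the higher libraries of Cd69. It was chosen after seeing the data, so its p-values are no support for a change.

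The number of all genes called, 186, was 75 without the filter on low values, where more genes were tested, and 305 with robust variance estimation, a difference whose cause was not tested; with 1 replicate left out it was between 130 and 144. Of genes on the other lists 2 were called with robust variance estimation, Cd276 and Cd93, 1 with the replicate number as a block, Cd276, and 0 with any replicate left out. With the replicate block 266 genes were called in all and 0 of the 8 tested here. Same-numbered replicates share only a number: their deviations from the genotype means correlated at -0.21 across genes. With the crossed pairing as a block, chosen after seeing the data, 409 of 10949 tested genes were called. Of these, 0 were among the 8 tested here and 4 were on the other lists. No scaling moved the median of all genes by over 0.1. FPKM values keep no read counts, so the counting error of low genes such as Cd80 is unknown.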

Other observations

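Pdcd1lg2 missed the fold change that the rule for nearest patterns asked for, and Cd83 and Cd69 lay below it too, so the genes of nearest pattern for these 3 were looked up after the values were seen. Likeness was the Euclidean distance over the 4 libraries between log2(FPKM + 1) values centred on the mean of each gene, among 10949 genes, and such neighbours will be found for almost any pattern of 4 values. Nearest to Pdcd1lg2 was Gpr171, at a distance of 0.0955, with 40.4 and 38.3 FPKM in WT and 23.1 and 18.2 FPKM in Ets1-/- B cells. Next came Ptpn22, which encodes a phosphatase that tunes antigen receptor signalling, at a distance of 0.116, with 17.5 and 17.6 FPKM in WT and 9.31 and 7.05 FPKM in Ets1-/- B cells. Gamt followed at 0.129.

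Nearest to Cd83 were E2f1 (distance 0.0565), a cell cycle transcription factor, Tsacc (0.0669) and Pelo (0.0769). E2f1 had 3.68 and 4.57 FPKM in WT and 6.95 and 7.79 FPKM in Ets1-/- B cells. Nearest to Cd69 were Mir3101 (distance 0.123), Dnajb9 (0.131) and Snord2 (0.244), of which the first and the last encode small RNAs. Dnajb9, which encodes a chaperone of the endoplasmic reticulum, had 18.5 and 59.5 FPKM in WT and 104 and 40.5 FPKM in Ets1-/- B cells, the same order of libraries as Cd69.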
